A study of Mus musculus with 11 samples.

Results

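Distal sites that were more open in luminal than in basal cells of the pubertal mouse mammary gland by a fixed ratio, called luminal-only sites here, numbered 9291. They were chosen by a rule on measured values. A site had to lie over 10 kb from every start site of transcription (TSS) of any coding gene in mm10, its mean in both luminal groups had to reach 4 CPM (reads in a peak per 1000000 reads in all peaks of that library), and the lower luminal mean had to be at least 3 times the higher basal mean. The rule took 9291 of 106497 distal peaks (8.72%), out of 153396 counted peaks in all. Accessibility was measured by ATAC-seq, in which a transposase cuts and tags open DNA, in cells sorted from micro-dissected terminal end buds (TEBs, the growing duct tips) and from the ducts behind them. All mice were 5 weeks old, of the C57BL/6 strain per the labels, and carried an E-cadherin-GFP reporter. Luminal cells were sorted as Lin-CD29+CD24+ cells with high GFP and basal cells as the same gate with low GFP, so the lineages were separated by the reporter and may each hold several epithelial subtypes. The groups were luminal TEB (3 libraries), luminal duct (3), basal TEB (3) and basal duct (2, replicates 1 and 3; the study discarded another for low cell number). Neither labels nor methods say if libraries with the same number share mice, and p-values measure the spread between these libraries.

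The mammary duct is a bilayer of inner luminal cells, which include hormone-sensing cells and milk-secreting precursors, and outer basal cells, which are contractile. Distal open sites are mostly enhancers, stretches of DNA where transcription factors bind and act on promoters that can lie far away. In luminal cells of the breast such sites are known to be bound by FOXA1, GATA3, the oestrogen receptor, ELF5 and Grainyhead-like factors, and in basal cells by p63 and TEAD factors.

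To show the DNA behind the values, the central 200 bp of 5 of the strongest luminal-only sites and of 3 sites near genes of fixed lists are printed here from the plus strand of the RefSeq GRCm38.p6 assembly (mm10). Capitals mark consensus matches on either strand to the motifs of FOX, AP-1, ETS, GRHL or GATA factors, which are spelled out where their shares are given.
Sgms2 site, central window chr3:131364782-131364981: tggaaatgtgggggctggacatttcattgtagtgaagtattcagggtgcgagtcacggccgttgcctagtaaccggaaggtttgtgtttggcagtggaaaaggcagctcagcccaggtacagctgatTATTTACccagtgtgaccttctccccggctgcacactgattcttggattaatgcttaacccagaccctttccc
4930467E23Rik site, central window chr8:19707462-19707661: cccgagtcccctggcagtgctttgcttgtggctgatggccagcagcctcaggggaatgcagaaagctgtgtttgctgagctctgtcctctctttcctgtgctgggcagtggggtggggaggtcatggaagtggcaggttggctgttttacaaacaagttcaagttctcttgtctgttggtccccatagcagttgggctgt
Basp1 site, central window chr15:25376796-25376995: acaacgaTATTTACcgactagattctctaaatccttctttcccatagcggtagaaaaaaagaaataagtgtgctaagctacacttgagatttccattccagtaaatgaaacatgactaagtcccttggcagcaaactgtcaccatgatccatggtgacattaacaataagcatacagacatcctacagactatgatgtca
Ets2 site, central window chr16:95682574-95682773: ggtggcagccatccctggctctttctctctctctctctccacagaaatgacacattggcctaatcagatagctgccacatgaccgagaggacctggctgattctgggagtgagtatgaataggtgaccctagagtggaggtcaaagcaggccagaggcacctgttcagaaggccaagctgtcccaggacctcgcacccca
Rdh10 site, central window chr1:16228271-16228470: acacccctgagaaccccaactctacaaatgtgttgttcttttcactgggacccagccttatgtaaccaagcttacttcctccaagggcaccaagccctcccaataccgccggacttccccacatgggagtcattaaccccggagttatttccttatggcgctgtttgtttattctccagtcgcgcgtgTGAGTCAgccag
Stc2 site, central window chr11:31503752-31503951: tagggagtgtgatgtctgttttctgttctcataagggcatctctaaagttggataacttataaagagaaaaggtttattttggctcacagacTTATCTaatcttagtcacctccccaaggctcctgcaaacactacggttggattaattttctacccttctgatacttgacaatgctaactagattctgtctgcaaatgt
Myh11 site, central window chr16:14303656-14303855: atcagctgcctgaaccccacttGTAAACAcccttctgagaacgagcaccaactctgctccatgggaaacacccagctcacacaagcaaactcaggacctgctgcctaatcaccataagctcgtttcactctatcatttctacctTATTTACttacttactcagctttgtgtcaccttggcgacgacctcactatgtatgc
Socs1 site, central window chr16:10754621-10754820: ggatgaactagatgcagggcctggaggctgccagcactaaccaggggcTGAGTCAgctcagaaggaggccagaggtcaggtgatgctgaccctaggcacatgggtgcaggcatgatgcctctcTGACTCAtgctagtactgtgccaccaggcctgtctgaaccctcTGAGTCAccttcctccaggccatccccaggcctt
The Sgms2 and Basp1 windows each held 1 FOX match, the Myh11 window 2, the Rdh10 window 1 AP-1 match, the Socs1 window 3, and the Stc2 window 1 GATA match. The 4930467E23Rik and Ets2 windows held none of these motifs. Of the other list sites, the Sox9, Jag1 and Fgfr2 windows held no match and are not printed, nor are the exonic Hjurp site and the Celf4 site. A match is a description of the letters in this window and not a bound site.

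At the median site, the group means were 9.12 CPM in luminal TEB and 8.95 CPM in luminal duct, against 1.45 CPM in basal TEB and 0.567 CPM in basal duct. These levels were fixed by the rule and are a description with no test. The median library counts per site were 32, 36 and 26 in luminal TEB and 43, 52 and 40 in luminal duct, against 3, 2 and 3 in basal TEB and 5 and 4 in basal duct, so a basal value of a single site rested on few reads. No site was at 0 counts in any luminal library, whereas 11.4% to 19% of the sites were at 0 in a basal TEB library and 3.73% and 5.92% in the basal duct libraries. The ratio of the lower luminal mean to the higher basal mean had a median of 5.40, with 5th and 95th percentiles of 3.15 and 16.0, and 1520 sites (16.4%) reached a ratio of 10.

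The luminal-only sites took 10.7%, 11.5% and 10.5% of all counts in peaks in luminal TEB libraries 1 to 3 and 10.9%, 11.4% and 10.6% in luminal duct libraries 1 to 3. They took 1.84%, 1.27% and 1.78% in basal TEB libraries 1 to 3, and 0.912% and 0.972% in basal duct libraries 1 and 3. The 95% Clopper-Pearson intervals of these shares were within 0.0349 percentage points on either side and cover counting error only. Luminal TEB and duct libraries overlapped, and each basal TEB library stood above both basal duct libraries. The same rule turned round took 5974 distal sites, with both basal means at 4 CPM or more and the lower of them at least 3 times the higher luminal mean. Those basal-only sites held 1.54%, 1.14% and 1.36% of the counts in luminal TEB libraries and 1.06%, 0.987% and 1.16% in luminal duct libraries, against 6.72%, 9.05% and 8.21% in basal TEB libraries and 7.94% and 8.47% in basal duct libraries. In each lineage, then, the sites of the other lineage averaged more counts in TEB than in duct cells, with overlap only among the luminal libraries. In bulk libraries a few cells of the other lineage in a sort and weak opening in every cell cannot be told apart.

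**Figure D1:**
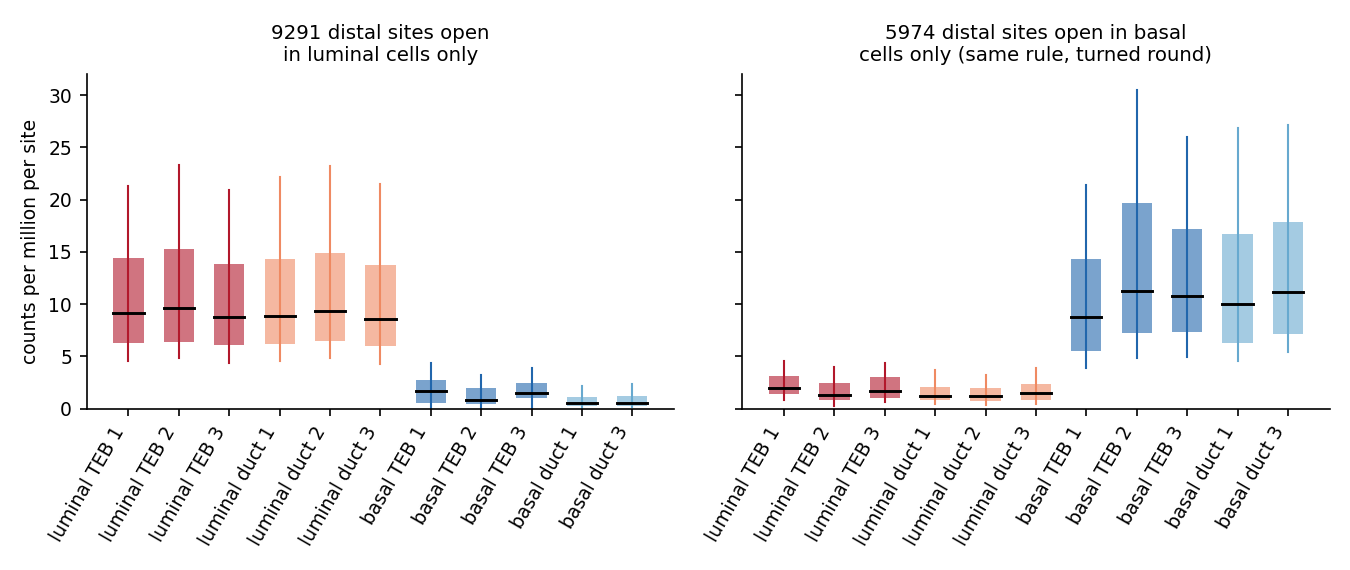
Level per site in each of the 11 libraries (CPM, linear axis), at the 9291 luminal-only sites (left) and at the 5974 basal-only sites (right). Black bars are medians over sites, boxes the quartiles and lines the outer deciles. The 6 luminal libraries have medians of 8.60 to 9.63 CPM at the luminal-only sites, and the basal libraries 0.501 to 1.65 CPM.

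Depth ranged from 2960093 to 5561051 counts in peaks in luminal libraries and from 1821942 to 2489582 in basal TEB libraries, against 6816197 and 9986384 in basal duct. Over all peaks, Spearman's rho between replicates was 0.845 to 0.860 in luminal TEB and 0.892 to 0.912 in luminal duct, against 0.700 to 0.754 in basal TEB and 0.954 in basal duct. At the luminal-only sites themselves it was 0.833 to 0.849 in luminal TEB and 0.827 to 0.883 in luminal duct, against 0.205 to 0.274 in basal TEB and 0.702 in basal duct. The basal TEB libraries also held more counts in distal peaks that are mostly (over 50%) soft-masked repeats, 9.11%, 3.55% and 4.57%, against 1.30% and 1.26% in basal duct, with luminal libraries between 2.37% and 3.32%. The sorted identity was checked at the promoters of lineage markers. Summed over 9 luminal markers (keratins Krt8, Krt18 and Krt19, factors Foxa1, Elf5 and Ehf, and others), promoter peaks held 294 to 353 CPM in luminal TEB and 306 to 362 CPM in luminal duct, against 76.3 to 93.6 CPM in basal TEB and 140 to 146 CPM in basal duct. Over 8 basal markers the sums were 36.8 to 39.5 CPM in luminal TEB and 27.9 to 33.8 CPM in luminal duct, against 151 to 200 CPM in basal TEB and 241 to 247 CPM in basal duct. Of 9 immune markers 6 had no promoter peak, Ptprc and Cd3e among them. The 3 with a peak summed to at most 23.6 CPM in luminal libraries, 11.5 to 28.9 CPM in basal TEB and 22.9 to 23.3 CPM in basal duct. Of 7 fibroblast markers 4 had a promoter peak, with sums of 18.5 to 22.7 CPM in luminal libraries, 64.2 to 84.4 CPM in basal TEB and 120 to 126 CPM in basal duct. Of 6 endothelial markers 3 had one, with 12.3 to 17.9 CPM in luminal libraries, 27.7 to 37.9 CPM in basal TEB and 34.5 to 43.3 CPM in basal duct.

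Because both lineages entered the rule, the difference was looked at again in libraries the rule had not used. When sites were chosen in the same way on replicates 1 and 3 alone, 7997 passed. In replicate 2, which exists for luminal TEB, luminal duct and basal TEB, the median levels of these sites were 10.2 CPM in luminal TEB and 9.89 CPM in luminal duct, against 1.21 CPM in basal TEB. Both luminal libraries were at least 3 times the basal TEB library at 6942 of them (86.8%), against 24.9% of all distal peaks and 19.8% of the distal peaks not so chosen. Sites with no read in the basal library counted as passing. Basal TEB replicate 2 also had the lowest share of counts in luminal-only sites among the basal TEB libraries (1.27%). Peaks were called on pooled replicates, so replicate 2 had a part in the peaks themselves, and the shares are descriptions. Basal duct has no replicate 2, so the check holds for the TEB side of basal cells only.

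The rule cut a continuous range. Just inside the floor were a site in an intron of Rad51b and one in an intron of Agap1, both at a lower luminal mean of 4.0011 CPM. Just outside were a site in an intron of Mpped2, at 3.9995 CPM, and one near Lsm3, at 3.996 CPM. At the other threshold, the Mrtfa and Arhgef7 sites were inside at ratios of 3.0001 and 3.0002, and the Hivep2 and Tspan2 sites outside at 2.99997 and 2.999.

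The 8 strongest luminal-only sites, by the lower of their luminal means, lay 14.3 to 131 kb from the nearest TSS. The strongest overlapped an exon of Hjurp, which encodes the chaperone of the centromeric histone CENP-A (chr1:88262095-88263255, 14.3 kb from the TSS). It had 127, 143 and 124 CPM in luminal TEB and 129, 141 and 158 CPM in luminal duct, against 24.2, 26.9 and 28.4 CPM in basal TEB and 13.3 and 15.0 CPM in basal duct. Its basal level was thus above the luminal level of most of the set, and its ratio was 4.95. A site in an intron of Celf4, an RNA-binding protein gene, had 91.9, 102 and 92.2 CPM in luminal TEB and 110, 113 and 108 CPM in luminal duct, against 7.14, 8.44 and 10.8 CPM in basal TEB and 4.81 and 3.52 CPM in basal duct (chr18:25714107-25715794).

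A site in an intron of Basp1, which encodes a membrane-bound signalling protein, combined a high luminal with a very low basal level. This site (chr15:25376369-25377422, 36.3 kb downstream of the TSS) had 83.0, 91.2 and 73.0 CPM in luminal TEB and 86.7, 91.5 and 77.0 CPM in luminal duct, against 2.20, 2.81 and 1.47 CPM in basal TEB and 0.901 and 1.32 CPM in basal duct. Its ratio of 38.2 was the highest of the 8. A site between genes and 122 kb from Rdh10, a retinol dehydrogenase gene of retinoic acid synthesis, had 74.1, 90.9 and 63.5 CPM in luminal TEB and 72.6, 77.5 and 68.4 CPM in luminal duct, against 5.49, 1.61 and 6.86 CPM in basal TEB and 8.61 and 10.4 CPM in basal duct (chr1:16227800-16228942). A site 131 kb from Noct, the circadian gene nocturnin, had 65.8, 83.7 and 66.6 CPM in luminal TEB and 79.2, 79.3 and 82.8 CPM in luminal duct, against 6.04, 4.42 and 3.43 CPM in basal TEB and 9.41 and 7.48 CPM in basal duct (chr3:51091978-51093093).

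The remaining strong sites were closer to the ratio threshold. One in an intron of Sgms2, a sphingomyelin synthase gene (chr3:131364252-131365512), had 89.1, 102 and 85.8 CPM in luminal TEB and 108, 89.6 and 82.6 CPM in luminal duct, against 11, 12.45 and 8.33 CPM in basal TEB and 30.1 and 22.0 CPM in basal duct. Another, 18.9 kb upstream of Ets2, a gene of the ETS factor family (chr16:95682139-95683208), had 80.4, 77.3 and 79.1 CPM in luminal TEB and 93.7, 83.8 and 70.3 CPM in luminal duct, against 2.74, 6.83 and 5.39 CPM in basal TEB and 24.4 CPM in both basal duct libraries. The site 21.5 kb from 4930467E23Rik (chr8:19707096-19708028) had 83.0, 89.6 and 82.4 CPM in luminal TEB and 103, 105 and 98.1 CPM in luminal duct, against 28.5, 20.5 and 28.9 CPM in basal TEB and 8.31 and 9.83 CPM in basal duct, and 41.4% of its bases were soft-masked repeat. In basal cells the means of these sites went both ways: the Sgms2, Ets2, Rdh10 and Noct sites averaged more in duct than in TEB and the Hjurp, Celf4, 4930467E23Rik and Basp1 sites more in TEB than in duct. In the test of basal TEB against basal duct used below, the difference passed at the Sgms2, Ets2, Rdh10 and 4930467E23Rik sites. It did not pass at the Noct, Hjurp, Celf4 and Basp1 sites.

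**Figure D2:**
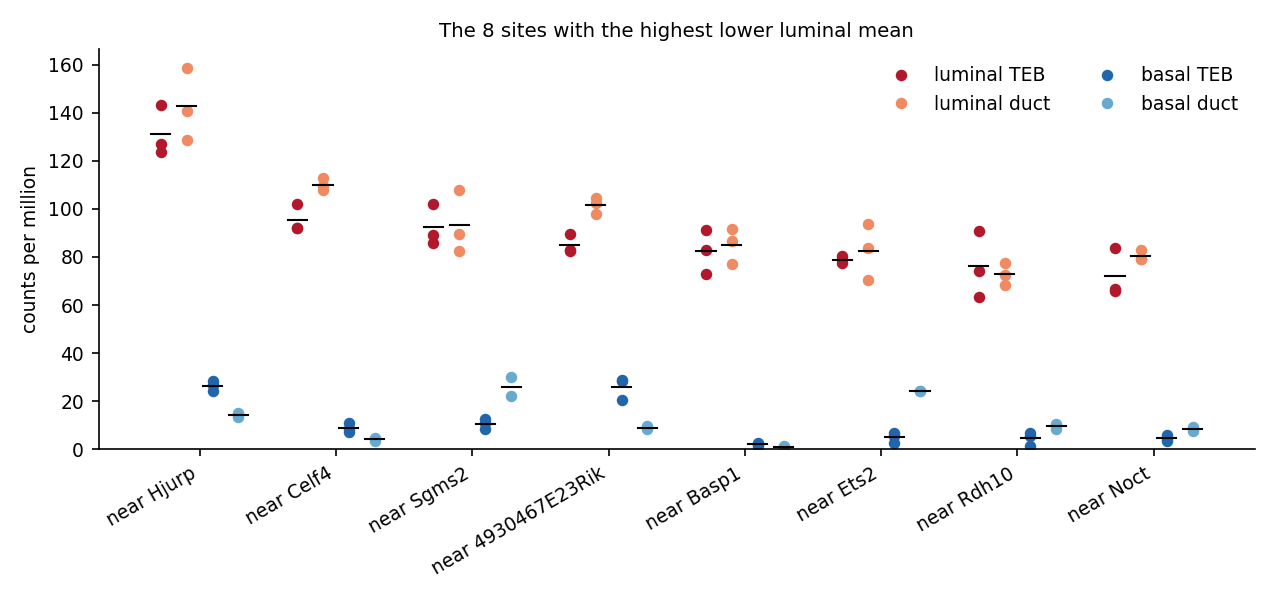
CPM of the 8 luminal-only sites with the highest lower luminal mean, named by their nearest gene. Each point is a library and each black bar a group mean. Luminal libraries range from 63.5 to 158 CPM and basal libraries from 0.901 to 30.1 CPM.

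In the genome the luminal-only sites lay in introns (4527 sites, 48.7%), between genes (4562, 49.1%) and in exons (202, 2.17%), against 44.9%, 52.6% and 2.56% of all distal peaks. They lay a median of 45.1 kb from the nearest protein-coding TSS (all distal peaks: 49.5 kb), and 2415 lay over 100 kb away. Their median width of 502 bp exceeded the 322 bp of all distal peaks and fell short of the 697 bp of the basal-only sites and of the 629 bp of distal peaks over the same luminal floor that missed the ratio. Their median GC content was 45.5%, against 48.9% in basal-only sites and 47.9% in all distal peaks. Only 273 (2.94%) were mostly soft-masked, against 0.636% of basal-only sites and 10.6% of all distal peaks.

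The sites were close to each other about as often as basal-only sites. Of the luminal-only sites 22.2% had another within 5 kb and 57.9% within 50 kb, against 21.3% and 58.3% of the fewer basal-only sites. At the intermediate distance by which super-enhancer callers join neighbours by default, 3130 sites (33.7%) had another, against 34.8% of basal-only sites, and runs of 5 or more numbered 25. The longest run held 11 sites over 53.9 kb downstream of the Basp1 TSS (chr15:25348424-25402335), with an average of 18.8 CPM per site in luminal TEB and 18.3 CPM in luminal duct, against 1.37 CPM in basal TEB and 0.649 CPM in basal duct. Another run of 11 lay over 39.6 kb at Gipc2 (chr3:152116245-152155870), a PDZ domain protein gene. A run of 8 sites near Inhbb, which encodes a subunit of activin and inhibin, was the strongest of the 4 largest, with 22.5 CPM per site in luminal TEB and 23.2 CPM in luminal duct, against 2.11 CPM in basal TEB and 1.77 CPM in basal duct.

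The nearest protein-coding TSSs belonged to 4622 genes. Of these, 2528 had 1 site, 1754 had 2 to 4, and 340 had 5 or more. Genes nearest to luminal-only and to basal-only sites were often shared: 1560 genes were nearest to both kinds, which is 33.8% of the luminal-only and 51.5% of the basal-only genes. The most sites fell to Adgrl2, a latrophilin receptor gene with 20, but Adgrl2 was also nearest to 121 distal peaks in all. Basp1 had 19 of 56, Myc, the growth-promoting transcription factor gene, 16 of 111, and Flrt3, a cell adhesion gene, 15 of 60. Meis1, a homeobox gene, had 14 of 43, the kinase gene Nek7 14 of 38, the cytoskeletal linker gene Dst 13 of 47, and Gipc2 13 of 36. Summed over its 19 sites, Basp1 had 344, 402 and 332 CPM in luminal TEB and 334, 388 and 342 CPM in luminal duct, against 35.1, 20.5 and 35.8 CPM in basal TEB and 29.0 and 23.3 CPM in basal duct. For Myc the sums over 16 sites were 224, 208 and 219 CPM in luminal TEB and 220, 203 and 173 CPM in luminal duct, against 35.7, 22.5 and 43.1 CPM in basal TEB and 16.8 and 16.4 CPM in basal duct. Around Myc, 11 basal-only sites lay as well. For Nek7, whose 14 sites lay within 126 kb and of which 13 were intronic, the sums were 211, 240 and 195 CPM in luminal TEB and 180, 202 and 177 CPM in luminal duct, against 29.6, 12.9 and 19.1 CPM in basal TEB and 10.8 and 13.2 CPM in basal duct. For Meis1 the sums over 14 sites were 166, 197 and 185 CPM in luminal TEB and 179, 194 and 181 CPM in luminal duct, against 28.5, 23.7 and 21.1 CPM in basal TEB and 8.31 and 9.68 CPM in basal duct. In each of these genes every luminal library stood above every basal library, as the rule requires of the means, and luminal TEB and duct libraries overlapped in Basp1, Myc, Nek7 and Meis1.

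Genes of 7 lists were read for the sites nearest to them. Of 21 mature luminal and hormone-sensing genes, 17 were nearest to 63 luminal-only sites, which is 18.9% of the 333 distal peaks assigned to these genes, beside 8.72% over all distal peaks, and 13 basal-only sites lay there. The paper had named Tox3 and Faah of this list from these same data, as luminal genes that gained accessibility near the TSS in luminal cells. The share is thus a description. Msx2, a homeobox gene, had 9, Tox3, a chromatin protein gene, and Areg, which encodes the EGF receptor ligand amphiregulin, had 7 each, and the prolactin receptor gene Prlr and the pioneer factor gene Foxa1 had 6 each. Esr1, the gene of oestrogen receptor alpha, had 5 and Pgr, the gene of the progesterone receptor, had 2. The 9 Msx2 sites summed to 117, 117 and 106 CPM in luminal TEB and 122, 127 and 94.2 CPM in luminal duct, against 26.3, 5.62 and 21.6 CPM in basal TEB and 5.91 and 5.13 CPM in basal duct. The 6 Prlr sites were more even, with 68.7, 74.4 and 66.9 CPM in luminal TEB and 67.1, 66.2 and 70.1 CPM in luminal duct, against 8.23, 7.23 and 7.35 CPM in basal TEB and 1.70 and 2.05 CPM in basal duct. The 5 Esr1 sites summed to 72.1, 84.8 and 73.6 CPM in luminal TEB and 68.5, 78.9 and 75.7 CPM in luminal duct, against 4.39, 4.02 and 10.8 CPM in basal TEB and 1.4 and 2.64 CPM in basal duct. The 6 Foxa1 sites summed to 49.99, 61.3 and 51.3 CPM in luminal TEB and 48.6, 57.9 and 48.6 CPM in luminal duct, against 7.14, 6.83 and 6.86 CPM in basal TEB and 3.50 and 3.96 CPM in basal duct. The strongest site of the list lay 133 kb from Stc2, a secreted glycoprotein gene (chr11:31503349-31504355). It had 52.3, 59.7 and 55.4 CPM in luminal TEB and 75.5, 66.9 and 51.2 CPM in luminal duct, against 3.84, 0.803 and 3.43 CPM in basal TEB and 0.701 and 0.587 CPM in basal duct.

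Of 30 pan-luminal genes, 21 were nearest to 74 luminal-only sites of 370 distal peaks assigned to them, and 8 basal-only sites lay there. That share was 20%, beside 8.72% over all distal peaks. Basp1 alone gave 19 of the 74, and the list was drawn up with earlier results of these data known, so the share is a description. Apart from Basp1, the transcription factor gene Tfcp2l1 had 10, Gata3, the luminal fate factor gene, had 9, and Ehf, an epithelial ETS factor gene, had 4. The 9 Gata3 sites summed to 116, 117 and 114 CPM in luminal TEB and 119, 145 and 107 CPM in luminal duct, against 7.68, 16.1 and 11.8 CPM in basal TEB and 11.5 and 10.4 CPM in basal duct. Of 21 luminal progenitor and milk genes 6 were nearest to a site, 19 sites in all, and 17 basal-only sites lay there. The 19 were 8.41% of 226 distal peaks, near the 8.72% over all distal peaks. Of the milk protein genes, Csn1s1, Lalba and Wap had no distal peak assigned, and none of the 3 at Csn2 or the 1 at Csn3 met the rule. Sox9, a stem and progenitor factor gene, had 7, Hey1, a Notch target gene, 4, Elf5, the alveolar ETS factor gene, 3 and Kit, a receptor gene of luminal progenitors, 2. The 3 Elf5 sites summed to 36.5, 44.7 and 38.9 CPM in luminal TEB and 35.5, 38.8 and 34.6 CPM in luminal duct, against 0.549, 4.42 and 5.88 CPM in basal TEB and 1.60 and 0.293 CPM in basal duct. The 7 Sox9 sites summed to 184, 179 and 157 CPM in luminal TEB, above the 140, 141 and 93.1 CPM in luminal duct, against 20.9, 10.8 and 16.2 CPM in basal TEB and 11 and 10.7 CPM in basal duct. None of the 7 passed the test of luminal TEB against luminal duct. The strongest of them, 319 kb from the gene (chr11:113101450-113102129), had 72.7, 68.7 and 50.7 CPM in luminal TEB and 55.4, 58.1 and 36.3 CPM in luminal duct, against 4.39, 4.42 and 2.45 CPM in basal TEB and 5.71 and 6.31 CPM in basal duct.

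Of 25 basal and contractile genes, 7 were nearest to a luminal-only site each, and 47 basal-only sites lay near the listed genes. The luminal-only sites were 2.57% of the 272 distal peaks assigned to the list, beside 8.72% over all distal peaks. One was 11.95 kb upstream of Myh11, the smooth muscle myosin heavy chain gene, inside an intron of Fopnl (chr16:14303322-14304190). It had 21.8, 28.9 and 25.7 CPM in luminal TEB and 31.4, 28.1 and 28.0 CPM in luminal duct, against 3.29, 0.402 and 2.94 CPM in basal TEB and 0.300 and 0.293 CPM in basal duct. The gene with the nearest TSS need not be the one a site acts on. Of 17 Notch pathway genes, 9 had 33 sites (10.03%, beside 8.72% over all distal peaks), and 33 basal-only sites lay near the list. The ligand gene Jag1 and the coactivator gene Maml3 had 7 each and the target gene Hes1 had 5. The strongest, in an intron of Jag1 (chr2:137097968-137099048), had 54.9, 65.0 and 49.7 CPM in luminal TEB and 49.0, 57.7 and 42.8 CPM in luminal duct, against 11, 14.9 and 11.3 CPM in basal TEB and 6.71 and 9.68 CPM in basal duct. Of 17 ErbB and FGF signalling genes, 10 had 29 sites (8.61%, beside 8.72% over all distal peaks), and 32 basal-only sites lay near the list. The receptor gene Erbb4 had 5, and Btc, a ligand gene, and Fgfr2, an FGF receptor gene, had 4 each. The strongest lay 236 kb from Fgfr2 (chr7:130029032-130029818), with 30.7, 29.2 and 21.3 CPM in luminal TEB and 20.9, 26.4 and 21.3 CPM in luminal duct, against 2.74, 0 and 1.96 CPM in basal TEB and 1.5 and 1.03 CPM in basal duct. Of 16 genes of prolactin, JAK and STAT signalling, 9 had 18 sites (10.7%, beside 8.72% over all distal peaks), and 13 basal-only sites lay near the list. The strongest lay 30.3 kb from Socs1, an inhibitor gene of JAK kinases (chr16:10754213-10755229), with 44.2, 48.4 and 39.5 CPM in luminal TEB and 44.1, 42.6 and 45.4 CPM in luminal duct, against 7.68, 17.3 and 12.3 CPM in basal TEB and 9.11 and 9.24 CPM in basal duct.

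Promoters were not used by the rule, so the promoter peaks of the nearest genes were compared between lineages by the exact test of edgeR at a false discovery rate (FDR) of 0.05. At most promoters near the sites the lineages did not pass the test in TEBs, and in ducts the calls went mostly toward basal cells. Among 3890 promoter peaks near the sites, luminal TEB was higher than basal TEB at 876 (22.5%) and lower at 346 (8.89%), beside 15.1% and 9.72% of all 13740 promoter peaks. In ducts, luminal was higher than basal at 484 (12.4%) and lower at 1538 (39.5%), beside 11.3% and 43.7% of all promoter peaks. The median log2 fold change of the promoters near the sites was 0.22 between the TEB groups and -0.24 between the duct groups, beside 0.09 and -0.31 over all promoter peaks. Where a gene had 5 or more sites (325 promoter peaks), luminal TEB was higher at 107 (32.9%) with a median of 0.38, and luminal duct at 47 (14.5%) with a median of -0.13. With 1 site (2067 peaks), luminal TEB was higher at 408 (19.7%) and luminal duct at 237 (11.5%). The duct split depended on scaling: with normalization factors taken from TSS peaks, 1311 promoters near the sites were higher and 896 lower in luminal duct, and with offsets by GC content 1367 and 881. Without basal duct replicate 3, 254 were higher in luminal duct. Between the TEB groups, 465 were higher without luminal TEB replicate 2 and 569 without replicate 3.

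Promoters of the genes with most sites showed both patterns. At the Basp1 promoter the group means were 16.2 CPM in luminal TEB and 21.9 CPM in luminal duct, against 11.6 CPM in basal TEB and 8.45 CPM in basal duct. The difference passed the test in ducts (log2 fold change 1.30, adjusted p = 8.84e-10 in the exact test of edgeR) and not in TEBs (0.56, adjusted p = 0.195). At the Gipc2 promoter they were 23.7 CPM in luminal TEB and 24.5 CPM in luminal duct, against 9.11 CPM in basal TEB and 15.5 CPM in basal duct, and both comparisons passed. At the Flrt3 promoter, next to 15 luminal-only sites, luminal duct was lower than basal duct, with 26 against 44.2 CPM (log2 fold change -0.80, adjusted p = 1.96e-06 in the exact test of edgeR). The Myc and Adgrl2 promoters passed in neither comparison, and Meis1, Nek7 and Dst passed between the TEB groups alone. The counts of the gene lists that follow are descriptions of short lists, to be read beside all 13740 promoter peaks. Of those, 15.1% were higher and 9.72% lower in luminal TEB than in basal TEB, and 11.3% were higher and 43.7% lower in luminal duct than in basal duct. Of the 21 mature luminal promoters 11 were higher and 2 lower in luminal TEB than in basal TEB, and 8 were higher and 4 lower in luminal duct than in basal duct. Foxa1 had the largest of the TEB differences, with log2 fold changes of 3.37 between the TEB groups and 2.42 between the duct groups. Of the 30 pan-luminal promoters 17 were higher and none lower in luminal TEB, and 15 were higher and 5 lower in luminal duct. Of 16 luminal progenitor and milk promoters 2 were higher and 4 lower in luminal TEB, and 3 were higher and 7 lower in luminal duct. Of the 25 basal and contractile promoters none was higher, 21 were lower in luminal TEB and all 25 in luminal duct. Of 16 Notch promoters 3 were higher and 2 lower in luminal TEB, and 1 was higher and 6 lower in luminal duct. Of 17 ErbB and FGF promoters 3 were higher and 3 lower in luminal TEB, and 3 were higher and 10 lower in luminal duct. Of 16 prolactin, JAK and STAT promoters 3 were higher and none lower in luminal TEB, and none was higher and 6 lower in luminal duct. The Esr1 promoter passed in neither, although its 5 distal sites met the rule.

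Consensus matches were counted in the central 200 bp of each site on both strands. No enrichment test was made, and all shares are descriptions. FOX matches (TGTTTAC or TATTTAC) were in 2202 luminal-only sites (23.7%), against 2.66% of basal-only sites and 9.34% of all distal peaks. Distal peaks over the same luminal floor that missed the ratio had 7.69%. AP-1 matches (TGANTCA) were in 3482 sites (37.5%), against 14.6% of basal-only sites and 23.7% of all distal peaks. Both a FOX and an AP-1 match were in 754 sites (8.12%), and 4361 sites (46.9%) held neither. GATA matches (AGATAA) were in 12.8% of luminal-only sites, 8.75% of basal-only sites and 9.66% of all distal peaks. GRHL matches (AACCNGTT) were in 3.89%, 1.54% and 2.48%, and OCT matches (ATGCAAAT) in 1.77%, 0.686% and 1.26%. The full oestrogen response element was rare, in 25 luminal-only sites (0.269%) and no basal-only site, against 0.0977% of all distal peaks.

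Some motifs were less frequent in the central window of luminal-only sites than in that of all distal peaks. TEAD matches (GGAATG) were in 13.2% of luminal-only sites, 20.8% of basal-only sites and 16.5% of all distal peaks, although over whole peaks, which are wider in luminal-only sites, the share was 29.0% against 27.3% of all distal peaks. The p63 half-site was in 2.03%, 4.07% and 2.42%, and over whole peaks in 5.03% of luminal-only sites against 4.60% of all distal peaks. The CTCF core was in 11 luminal-only sites (0.118%) and in 0.100% of basal-only sites, against 2.53% of all distal peaks. SP/KLF matches (GGGCGGG) were in 1.65%, 3.06% and 2.93%. ETS matches (CNGGAAGT) were in 4.37% of luminal-only sites and 3.89% of all distal peaks, STAT matches (TTCCNNGAA) in 3.97% and 3.89%, and RUNX matches (TGTGGTT) in 7.16% and 6.18%. FOX shares differed little with strength, at 25.4%, 24.6%, 23.6% and 21.2% in quartiles of rising luminal level. Along the sites, FOX matches per 20 bp numbered 32.9 per 1000 sites at 30 bp after the centre and 10.4 at 190 bp before it, while in basal-only sites they stayed between 1.84 and 4.52.

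**Figure D3:**
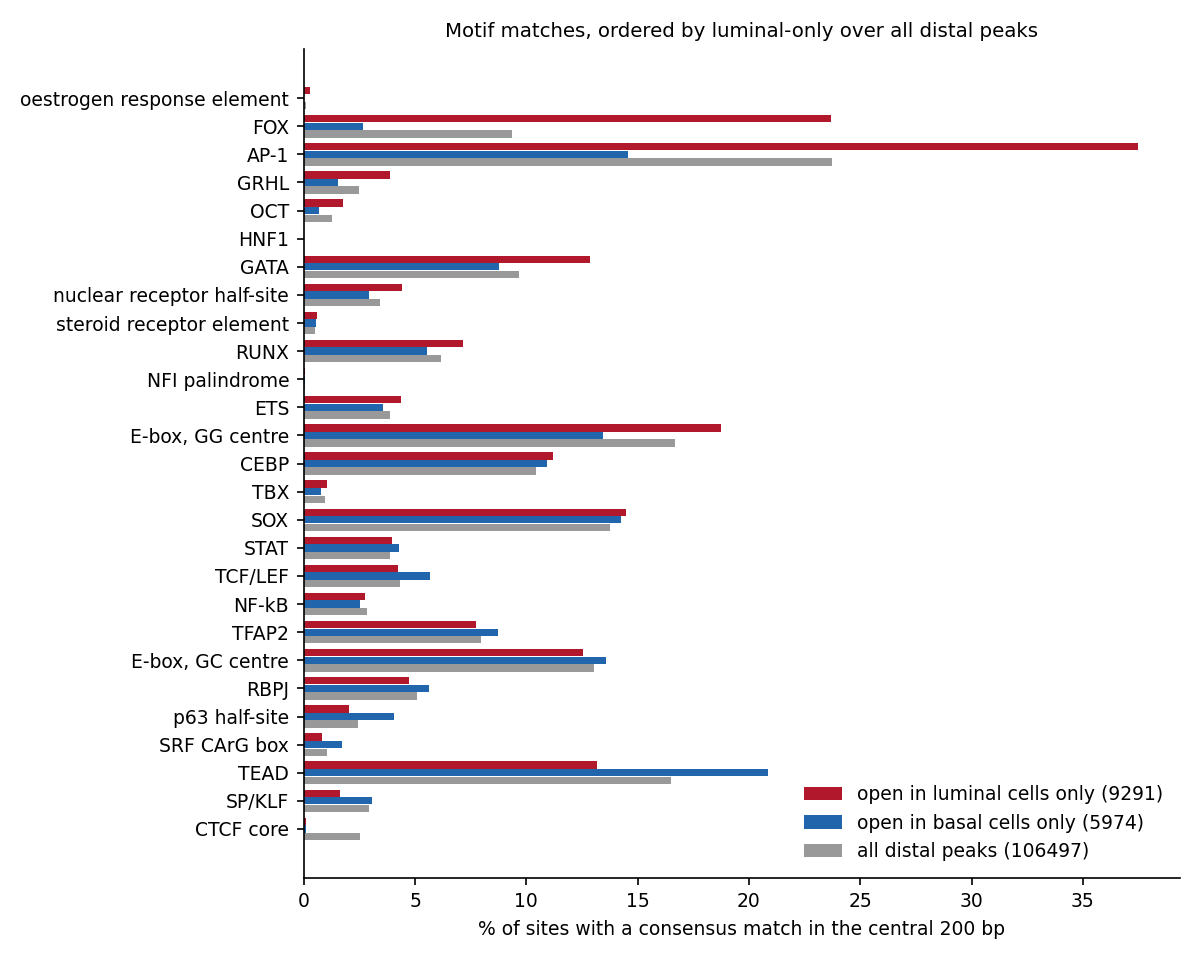
Share of sites with a consensus match in the central 200 bp (% of sites), for the 9291 luminal-only sites, the 5974 basal-only sites and all 106497 distal peaks, ordered by the ratio of the luminal-only share to that of all distal peaks. FOX (23.7% against 9.34% of all distal peaks) and AP-1 (37.5% against 23.7%) have the largest differences in share, the oestrogen response element (0.269% against 0.0977%) has the highest ratio, and CTCF (0.118% against 2.53%) the lowest.

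**Figure D4:**
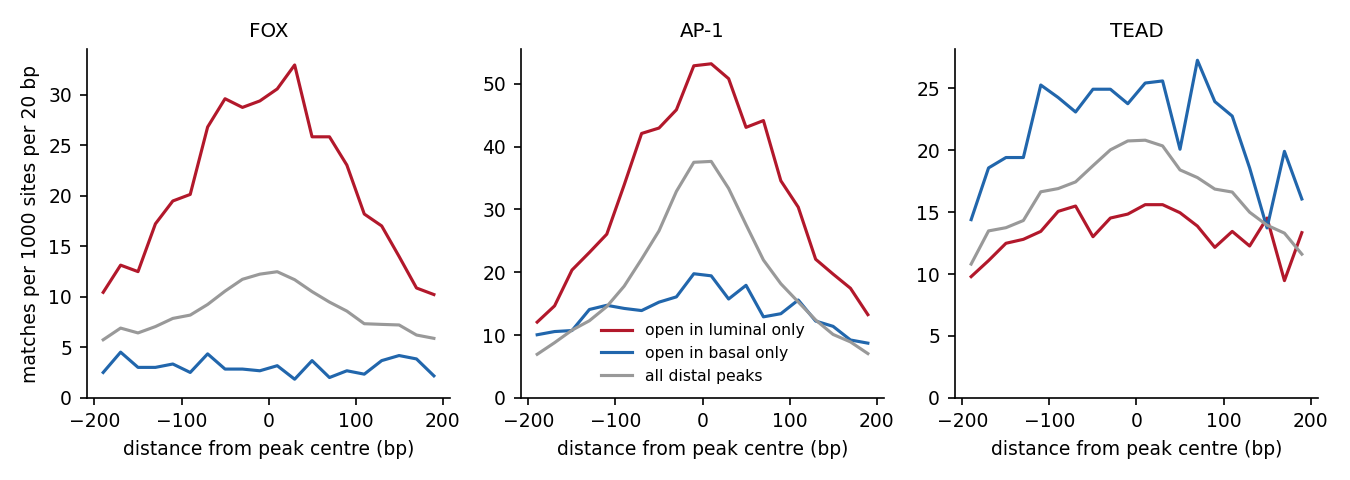
Consensus matches per 1000 sites in 20 bp bins against the distance from the peak centre (bp), for FOX, AP-1 and TEAD. FOX matches pile up at the centre of luminal-only sites and, at a lower level, of all distal peaks, and are flat in basal-only sites. TEAD matches are more frequent in basal-only sites at most distances.

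Few of the sites passed the test between the structures in luminal cells. The rule held both luminal means above the floor and the ratio, which left out sites with a large difference between them, so the counts describe the chosen sites. In the exact test of edgeR over all peaks, luminal TEB was higher than luminal duct at 45 of 9291 sites (0.484%, beside 0.311% of all peaks) and lower at 89 (0.958%, beside 0.455%). The median log2 fold change over the sites was -0.05, and its 5th and 95th percentiles were -0.58 and 0.51. At an unadjusted p under 0.05 in this test, 456 of the 9291 sites were higher and 774 lower, beside 8412 and 9248 of all 153394 peaks tested. Distal peaks over the same luminal floor that missed the ratio had 0.570% higher and 0.647% lower. The 45 sites were spread over 44 nearest genes and the 89 over 87. Leaving out luminal TEB replicates 1, 2 and 3 in turn left 14, 24 and 13 higher sites and 14, 110 and 19 lower ones, and leaving out luminal duct replicates 1, 2 and 3 left 14, 38 and 19 higher and 44, 39 and 66 lower. With factors from TSS peaks the split turned to 173 higher and 46 lower, where the median of all peaks moved to 0.17 and that of the sites to 0.11.

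Among sites higher in luminal TEB, one 16.2 kb upstream of Bhlhe41, a circadian repressor gene, had 30.7, 32.1 and 27.7 CPM in luminal TEB, against 15.4, 17.6 and 11.8 CPM in luminal duct (log2 fold change 0.95, SE 0.20, adjusted p = 0.000493 in the exact test of edgeR). A site in an intron of Aim2, a DNA sensor gene, had 18.1, 19.5 and 15.9 CPM in luminal TEB, against 5.95, 10.1 and 7.53 CPM in luminal duct (1.12, SE 0.23, adjusted p = 0.00119). One 32.0 kb from Btg1, an antiproliferative gene, had 17.8, 15.0 and 18.6 CPM in luminal TEB, against 8.0, 9.53 and 4.73 CPM in luminal duct (1.12, SE 0.31, adjusted p = 0.00169 in the same test). Sites were named here only if their groups did not overlap, so that trait was fixed by the choice. The groups did not overlap at any of the 45 higher sites, a trait not counted over all called peaks and so not particular to these sites.

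Among sites lower in luminal TEB, the largest change was in an intron of Phtf2 (chr5:20857887-20858378), with 7.18, 4.28 and 7.43 CPM in luminal TEB, against 23.0, 16.5 and 16.1 CPM in luminal duct (log2 fold change -1.63, SE 0.27, adjusted p = 5.64e-07 in the exact test of edgeR). Of its bases 56.7% were soft-masked. A site 422 kb from Gm21833 had 8.04, 11 and 9.12 CPM in luminal TEB, against 21.5, 18.7 and 27.7 CPM in luminal duct (-1.31, SE 0.21, adjusted p = 5.85e-06). A site 530 kb from Zbbx had 21.0, 22.7 and 18.9 CPM in luminal TEB, against 37.1, 37.0 and 47.3 CPM in luminal duct (-1.0, SE 0.14, adjusted p = 1.94e-05). A site 85.1 kb from Alx1, a homeobox gene, had 18.1, 17.1 and 16.6 CPM in luminal TEB, against 33.6, 32.7 and 34.8 CPM in luminal duct (-1.02, SE 0.04, adjusted p = 3.10e-05). These 4 sites were likewise named only among called sites whose groups did not overlap. Of all 89 lower sites, 83 had groups that did not overlap, which again was not counted over all called peaks. Basal libraries ranged from 0 to 7.84 CPM over the 7 sites described here for luminal TEB against duct. RUNX matches were in 1 of the 45 higher and 12 of the 89 lower sites, beside 7.16% of all luminal-only sites, and STAT matches in 0 and 10, beside 3.97%, counts too small for more than a description. Of the 7 gene lists, 1 site near an ErbB and FGF gene (Btc) was higher and 1 near a pan-luminal gene (Gata3) lower, and no other listed site passed.

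In basal cells the same sites were low in both structures, and most were less low in TEBs. The basal TEB mean, in CPM with no normalization factor, was above the basal duct mean at 7819 sites (84.2%), a share not counted over all distal peaks. The median log2 fold change, with normalization factors, was 0.93, beside 0.21 over all distal peaks, 0.02 over all peaks and -0.24 at the basal-only sites. All distal peaks had an upper quartile of 1.31. The lower quartile of their group means was 1.31 CPM in basal TEB and 0.497 CPM in basal duct, so low distal peaks in general leaned this way. The rule capped both basal means, so these sites could not rise far in either. In the exact test of edgeR basal TEB was higher at 313 sites (3.37%, beside 8.22% of all peaks) and lower at 58 (0.624%, beside 9.73%). The share called higher was thus below that of all peaks. The counts depended on scaling and test, with 885 higher and 9 lower with factors from TSS peaks, 203 and 93 with offsets by GC content, and 112 and 12 by DESeq2. The 313 sites had a median of 6, 5 and 6 counts in basal TEB libraries 1 to 3, against 3 and 2 counts in basal duct libraries 1 and 3. Without basal duct replicate 1, 0 were called higher and 3 lower, and without replicate 3, 2 higher and 10 lower. Without basal TEB replicate 1 the counts were 313 and 90, and without replicate 2 they were 747 and 65.

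The sites called higher in basal TEB stayed far below their luminal level. The one with the smallest p lay 28.7 kb from Bcl2l14, an apoptosis family gene (chr6:134443129-134444287). It had 8.23, 4.02 and 9.80 CPM in basal TEB, against 0.601 and 1.32 CPM in basal duct (log2 fold change 2.72, SE 0.47, adjusted p = 0.000187 in the exact test of edgeR), where luminal TEB had 34.2 ± 1.13 CPM (SD, n = 3). A site 45.0 kb from Dync1h1, the dynein heavy chain gene, in an intron of Ppp2r5c had 3.29, 6.83 and 3.43 CPM in basal TEB, against 0.501 and 0 CPM in basal duct (3.66, SE 0.68, adjusted p = 0.00052), and 1 in an intron of Tmem159 had 5.49, 2.01 and 7.84 CPM, against 0.501 and 0.293 CPM (3.28, SE 0.54, adjusted p = 0.000886). Each of the 3 lost its call without 1 basal duct library: adjusted p was 0.198 for Bcl2l14 without replicate 1, 0.155 and 0.154 for Dync1h1 without replicate 1 and without replicate 3, and 0.112 and 0.128 for Tmem159. These fits left a single basal duct library, so the spread came from the basal TEB libraries alone, and that library was assumed to vary like them. Over all leave-outs the log2 fold change was 2.28 to 3.22 at the Bcl2l14 site and 2.94 to 3.79 at the Tmem159 site, and at the Dync1h1 site, which has no count in basal duct replicate 3, the lowest was 2.84. The 3 with the smallest p among the 58 lower sites were the Ets2 site described above, with 2.74, 6.83 and 5.39 CPM in basal TEB, against 24.4 and 24.4 CPM in basal duct (-2.46, SE 0.37, adjusted p = 2.85e-09), a site 92.1 kb from Tcf4, a bHLH factor gene, with 2.74, 0.803 and 3.43 CPM, against 16.5 and 11.6 CPM (-2.89, SE 0.57, adjusted p = 7.75e-08), and 1 in an intron of Mtmr7, a lipid phosphatase gene, with 1.65, 0.402 and 2.45 CPM, against 9.21 and 9.10 CPM (-2.88, SE 0.50, adjusted p = 2.97e-06).

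Whether the TEB effect differed between the lineages was tested as an interaction with the quasi-likelihood test of edgeR over all 11 libraries. The sites were chosen on the same libraries, with both luminal means held high and both basal means capped, so counts and medians over them describe the chosen sites. The difference of log2 fold changes, luminal minus basal, was below 0 at 1300 sites (14.0%, beside 7.54% of all peaks) and above 0 at 62 (0.667%, beside 6.47%), with a median over the sites of -1.04, beside -0.05 over all peaks. All distal peaks leaned the same way, with 9.15% below 0, 5.23% above 0 and a median of -0.27. Basal-only sites, chosen with the caps on luminal means, had 0.301% below 0, 6.01% above 0 and a median of 0.48. At the 1300 sites the median group means were 11.9 CPM in luminal TEB and 13.1 CPM in luminal duct, against 2.22 CPM in basal TEB and 0.347 CPM in basal duct. The lineage ratio at these sites was thus smaller in TEBs than in ducts, with luminal values that differed by a median of -0.18 on the log2 scale. At the 62 sites it was larger, with medians of 25.6 CPM in luminal TEB and 24.8 CPM in luminal duct, against 1.89 CPM in basal TEB and 5.93 CPM in basal duct. The median count of the 1300 sites was 5, 4 and 5 in basal TEB libraries and 3 and 2 in basal duct libraries. The depth, replicate agreement and repeat share of the basal TEB libraries given above moved with this result. Fibroblast marker sums were lower in basal TEB than in basal duct, while immune and endothelial sums overlapped between these groups. The part of each of these in the result was not tested. Of the 1300 sites 3.62% were mostly soft-masked, beside 2.94% of all luminal-only sites. Without basal TEB replicate 1, the library with the largest repeat share, 928 sites were below 0 and 63 above. Without basal duct replicate 1, 316 were below 0 and 22 above, and without replicate 3, 706 and 51. The count above 0 was 32 without luminal TEB replicate 2, 40 without luminal duct replicate 1 and 35 without luminal duct replicate 3. With factors from TSS peaks 2235 were below and 24 above 0, and with offsets by GC content 661 and 148.

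**Figure D5:**
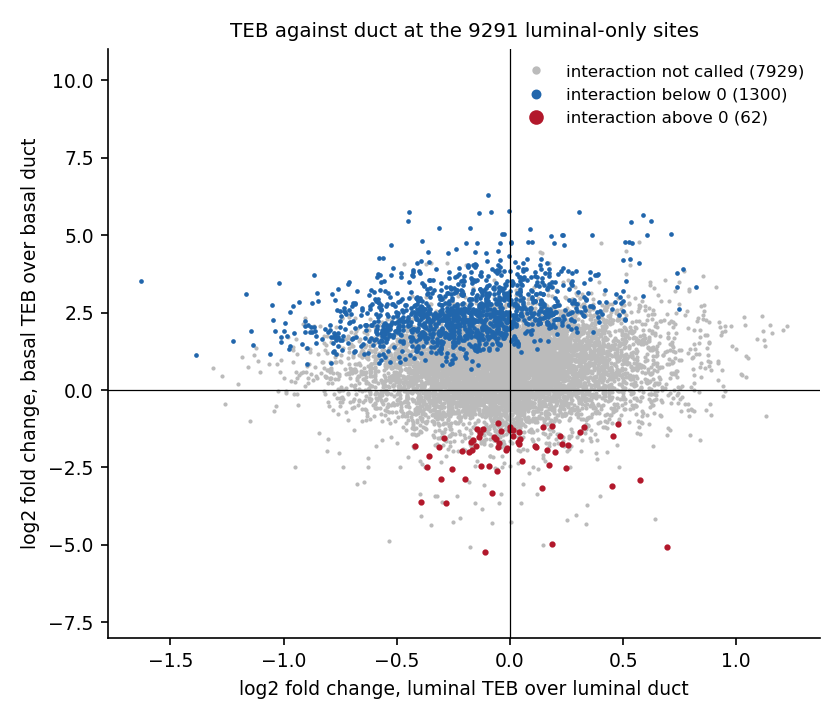
Log2 fold change of TEB over duct in basal cells (vertical) against that in luminal cells (horizontal) at the 9291 luminal-only sites, 1 point per site, coloured by the test of the interaction. The luminal values lie mostly within -0.58 to 0.51 and the basal values are shifted upward to a median of 0.93 (all distal peaks: 0.21), with 1300 sites below 0 and 62 above 0 in the interaction.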

How the data were processed

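ATAC-seq libraries were made from 11 samples. Per the labels and methods, the authors aligned reads to mm10 with Bowtie2 (2.3.4.3 in the labels, another release in the methods), removed duplicates, called MACS2 peaks on pooled replicates and deposited raw read counts per peak (153396 peaks). No read shift is stated in the sources used here. The site set and the gene and motif lists were chosen with earlier results of these data known. TSSs were those of protein-coding genes in GENCODE vM21 basic, and distances run from the nearest peak edge. Counts were compared with the exact test of edgeR 4.0.16 (TMM factors, R 4.3.3, FDR 0.05 over all peaks with a count), and the interaction with its quasi-likelihood test after filterByExpr. The SE of a log2 fold change is between samples, computed from log2 CPM (prior count 2). The scripts were tested on simulated data with planted changes. Alternatives were quasi-likelihood and DESeq2 1.42.0 tests, column totals, TSS-peak factors, GC-content offsets, a low-count filter, a replicate block and leave-outs. Sites named are the 8 strongest, up to 4 and 3 with the smallest p in each direction in luminal and basal cells, the strongest of each gene list, the 8 genes with most sites, and the sites at the thresholds. Those named for luminal cells were picked among called sites whose groups did not overlap. A named site, a marker gene and the sequence of another site are not reported here. Coordinates are mm10, 1-based.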

Additional observations from a re-analysis of the deposited data

Results flagged for a closer look

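The difference between the lineages in their TEB effect (luminal minus basal log2 fold change, quasi-likelihood test of edgeR at FDR 0.05 over 126832 peaks) was below 0 at 1300 luminal-only sites and above 0 at 62. Among the luminal-only sites described in the report it passed the test below 0 at the sites of Hjurp (-0.94), Celf4 (-1.16), 4930467E23Rik (-1.68), Phtf2 (-5.20), Zbbx (-2.97), Alx1 (-4.50), Stc2 (-2.03), Myh11 (-2.78), Arhgef7 (-2.33), Bcl2l14 (-2.92), Dync1h1 (-3.67) and Tmem159 (-3.43). It passed above 0 at the sites of Sgms2 (1.38), Ets2 (2.26), Rdh10 (1.24), Tcf4 (2.62) and Mtmr7 (2.5). The Phtf2, Zbbx and Alx1 sites were named for a small p in luminal cells. The Bcl2l14, Dync1h1, Tmem159, Ets2, Tcf4 and Mtmr7 sites were named for a small p in basal cells. Their direction here was thus largely set by the choice. Basal TEB and duct counts were 5, 1 and 6 against 1 and 1 at the Phtf2 site, and 8, 7 and 1 against 2 and 1 at the Alx1 site.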

How the results depend on the processing

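No fold change of a named site that passed the main test changed sign under the alternatives run. Fold changes near 0 that did not pass did so when a library was left out or under another scaling, as at the Jag1 site (luminal TEB against duct, -0.02 without luminal TEB replicate 2). With TSS-peak factors the balance of higher and lower calls turned round in luminal cells and, as with GC offsets, at promoters in ducts. These alternatives changed a count. For luminal TEB against luminal duct, higher sites numbered 2 by DESeq2 (which gave an adjusted p to 623 sites), 71 with column totals, 173 with TSS-peak factors and 108 after the low-count filter, and lower sites 13 by DESeq2 and 46 with TSS-peak factors. For basal TEB against basal duct, higher sites numbered 112 by DESeq2, 885 with TSS-peak factors, 203 with GC offsets and 135 after the filter, and lower sites 12 by DESeq2, 29 with column totals, 9 with TSS-peak factors, 93 with GC offsets and 19 after the filter, which kept 636 sites. In the interaction, sites above 0 numbered 23 by DESeq2, 24 with TSS-peak factors and 148 with GC offsets, and sites below 0 2235 and 661 with the last pair. Promoters near the sites, luminal duct against basal duct, numbered 1311 higher and 896 lower with TSS-peak factors and 1367 and 881 with GC offsets, and those lower in luminal TEB than in basal TEB 560 after the filter. The causes were not tested. TSS-peak factors moved the median of all peaks to 0.17 in luminal cells, 0.67 in basal cells and 0.42 in ducts, and that of the interaction to -0.44, where the main values were 0.01, 0.02, 0.10 and -0.05.

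Leaving out 1 library at a time gave 13 to 38 higher and 14 to 110 lower sites in luminal cells, 0 to 747 and 3 to 90 in basal cells, 22 to 67 above and 316 to 1809 below 0 in the interaction, 254 to 511 higher and 1137 to 1581 lower promoters in ducts, 465 to 1091 and 241 to 402 in TEBs, and 8455 to 9522 sites by the rule. A floor of 8 CPM left 4767 sites, a ratio of 5 left 5190 and a distance over 50 kb 4341. Neighbours within 5 kb were found at 22.2% of sites and within 50 kb at 57.9%. FOX matches were in 38.9% of whole peaks, and TEAD matches in 23.4% of central 400 bp windows and in 29.0% of whole peaks, against 27.3% of all distal peaks over their whole length.

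Same-numbered luminal TEB and duct libraries had deviations correlated at 0.054, 0.094 and 0.065, and each correlated best with its own number, a hint from the data. With the replicate block 92 sites were higher and 183 lower in luminal TEB. Calls over all peaks rose as well, to 1049 higher and 1702 lower, from 477 and 698 in the main fit.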
